A study of Homo sapiens with 2 samples.

Results

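YAP1 and 2 genes known as its targets, CYR61 (also called CCN1) and CTGF (also called CCN2), were examined in a list of called chromatin loops from KYSE180, an established ESCC cell line. The assay was H3K27ac HiChIP. In it, DNA ligated between nearby fragments is pulled down with an antibody against an acetylated lysine of histone H3, a mark of active promoters and enhancers. Both libraries, labelled 1 and 2, came from cells transfected with a non-targeting siRNA. A loop joined a pair of 2 kb bins, called anchors here, and carried the number of contacts between them. Loops were taken as belonging to a gene where an anchor overlapped the window of 10 kb on either side of its 5′ end, which gave 9 of the 31950 loops of the list. Of these, 4 belonged to YAP1, 5 to CYR61 and 0 to CTGF. Among windows of this width centred on each anchor of the list, 51.4% held at least as many loops as YAP1 and 41.4% at least as many as CYR61.

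The Hippo pathway controls tissue growth through YAP1, a transcriptional coactivator without a DNA-binding domain of its own. When the LATS kinases do not phosphorylate it, YAP1 stays in the nucleus and binds DNA through TEAD transcription factors, often at enhancers. CYR61 and CTGF encode secreted matricellular proteins of the CCN family that act on cell adhesion and migration, and their transcripts are widely used as readouts of YAP1 and TEAD activity. In stratified epithelia such as that of the esophagus, YAP1 is known for keeping basal progenitor cells proliferating.

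The promoters show what a TEAD protein could recognise at these genes. The 250 bases before the gene start (RefSeq, GRCh38.p14) are given for YAP1, the only member whose 5′ end lay in an anchor, and for CTGF, the member without a loop, and are written 5′ to 3′ on the strand of the gene. Capitals mark the TEAD motif CATTCC or, as in each case here, its reverse complement GGAATG. The YAP1 sequence lies at chr11:102110197-102110446 on the plus strand, and the CTGF sequence at chr6:131951373-131951622 on the minus strand.
YAP1: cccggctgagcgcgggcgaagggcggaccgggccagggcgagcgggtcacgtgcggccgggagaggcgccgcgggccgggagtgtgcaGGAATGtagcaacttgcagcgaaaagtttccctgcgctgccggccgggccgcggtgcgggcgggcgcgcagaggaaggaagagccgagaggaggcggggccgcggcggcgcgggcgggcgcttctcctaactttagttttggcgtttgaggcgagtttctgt
CTGF: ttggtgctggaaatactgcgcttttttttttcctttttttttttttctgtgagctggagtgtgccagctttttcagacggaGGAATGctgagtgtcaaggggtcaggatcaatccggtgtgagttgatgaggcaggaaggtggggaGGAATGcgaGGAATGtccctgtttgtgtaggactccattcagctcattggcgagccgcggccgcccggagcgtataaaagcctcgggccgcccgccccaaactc

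YAP1 had 1 TEAD motif, starting 162 bases before the gene start. CTGF had 3, starting 169, 104 and 95 bases before it. Of the 35116 promoters of the reference table, searched over the same 250 bases on both strands, 11.9% held at least 1 such motif, and 29 (0.0826%) held 3 or more. CTGF is a textbook TEAD target, and the motif was chosen with that known, so these matches describe the sequence and are no evidence of binding. The AP-1 motif TGACTCA was found in neither sequence and in 4.2% of all promoters. The CYR61 promoter was not analysed here.

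The list held 33708 contacts, and 96.6% of its loops rested on 1 contact. The authors deposited 1 list for both libraries, so the spread between them could not be measured, their depths are unknown, and no comparison between samples was tested. The 95% intervals (exact Poisson for counts, Wilson for shares) cover counting error only, and read pairs are not independent molecules. The intervals also take loops as independent, although some loops of YAP1 and of CYR61 shared an anchor. All 9 loops of the members rested on 1 contact each, and a count of 1 does not show whether a contact recurs. Positions of loops are in hg19, and the promoter positions above, in the newer build, were not laid over them.

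YAP1 was joined to sequence on its downstream side in each of its 4 loops. Its 5′ end lies at base 101981192 of chromosome 11, on the plus strand, in the anchor from 101980001 to 101982000. This anchor had 2 loops. The shorter ended at 102008001 to 102010000, which is 27.8 kb downstream of the 5′ end, and the longer at 102126001 to 102128000, which is 145.8 kb downstream. The adjoining anchor from 101982001 to 101984000 had 1 loop, to the farthest YAP1 partner at 102236001 to 102238000, 255.8 kb downstream. The last loop left from 101988001 to 101990000, an anchor 7.8 kb downstream of the 5′ end, and ended 29.8 kb downstream at 102010001 to 102012000. Thus 3 of the 4 loops left from the bin that holds the 5′ end or the bin next to it.

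Partners of YAP1 were partly shared and partly joined to each other. The nearest partners touched, and with another anchor beside them they made a run of 6 kb from 102008001 to 102014000 that took 2 YAP1 loops, the most of any run of touching anchors at YAP1. This run also had a loop to the partner 145.8 kb downstream, which left from the bin 31.8 kb downstream, and a loop to 102142001 to 102144000, 161.8 kb downstream. The 5′ end, the run and the partner at 145.8 kb were therefore joined in all 3 pairings, each by 1 contact, with the run taken as a whole. The partner at 145.8 kb had 3 loops in all. The farthest partner had no loop besides that to YAP1, but the bin touching it had 2, to sites 279.8 kb and 555.8 kb downstream of the YAP1 5′ end.

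YAP1 is 123 kb long in the GRCh38.p14 annotation. If its length is the same in hg19, the run at 27.8 to 31.8 kb lies inside the gene and the partners at 145.8 and 255.8 kb lie beyond its end. Whether a partner is exonic or intronic was not resolved. The next protein-coding genes downstream are BIRC3 and BIRC2, which encode inhibitors of apoptosis, followed by TMEM123, a membrane protein gene. The order of genes alone does not place the distant partners at any of these promoters. Upstream, the next protein-coding gene is CFAP300, a cilia gene.

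Nearly all anchors around YAP1, its own partners included, lay on its downstream side. Of the 4 loops, 100% went downstream (Wilson interval 51 to 100%, with loops that share an anchor taken as independent). Within 500 kb of the 5′ end, and outside its window, 18 anchors lay downstream and 1 upstream. YAP1 was joined to 4 of the 18 and not to the 1 upstream anchor, at 388.2 kb, which had a loop that passed over YAP1 to a bin 235.8 kb downstream. Of these 4 partners, those at 27.8 and 255.8 kb were anchors only through their loop to YAP1. The count of anchors is therefore not separate from the direction of the loops. The part of the anchors in the direction of the loops was not tested. The loop to 27.8 kb ended at the nearest anchor outside the window, and the loop to 29.8 kb passed over 1 anchor outside it. The loop to 145.8 kb passed over 5 and the loop to 255.8 kb over 10.

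CYR61 had loops mainly to its upstream side, and its 5′ end itself lay in a bin without any loop. The 5′ end is base 86046444 of chromosome 1, on the plus strand, between the anchors 86042001 to 86044000 and 86048001 to 86050000. The anchor from 86038001 to 86040000, whose midpoint lies 7.4 kb upstream, had 3 of the 5 loops. These ended 529.4 kb upstream at 85516001 to 85518000, 75.4 kb upstream at 85970001 to 85972000, and 78.6 kb downstream at 86124001 to 86126000. The anchor 3.4 kb upstream had 1 loop, to the nearest partner at 85994001 to 85996000, 51.4 kb upstream. The anchor 2.6 kb downstream, the closest to the 5′ end, had 1 loop, to 85744001 to 85746000, 301.4 kb upstream.

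The number of CYR61 loops depended on the width of the window. Within 1 kb of the 5′ end CYR61 had 0 loops, within 5 kb 2, and within 10 or 20 kb 5. The corresponding numbers for YAP1 were 3, 3, 4 and 4, and CTGF had 0 at every width. CYR61 is 3.19 kb long in the annotation, and the next protein-coding gene upstream, DDAH1, which encodes an enzyme that breaks down methylated arginines, is on the opposite strand. The 5′ ends of DDAH1 and CYR61 thus face each other. How far apart they are in hg19 was not determined, so the anchors 3.4 and 7.4 kb upstream cannot be assigned to CYR61 rather than to DDAH1. DDAH1 is 260 kb long in the annotation. Whether the CYR61 partners 51.4 and 75.4 kb upstream lie inside DDAH1 was not determined either.

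**Figure D1:**
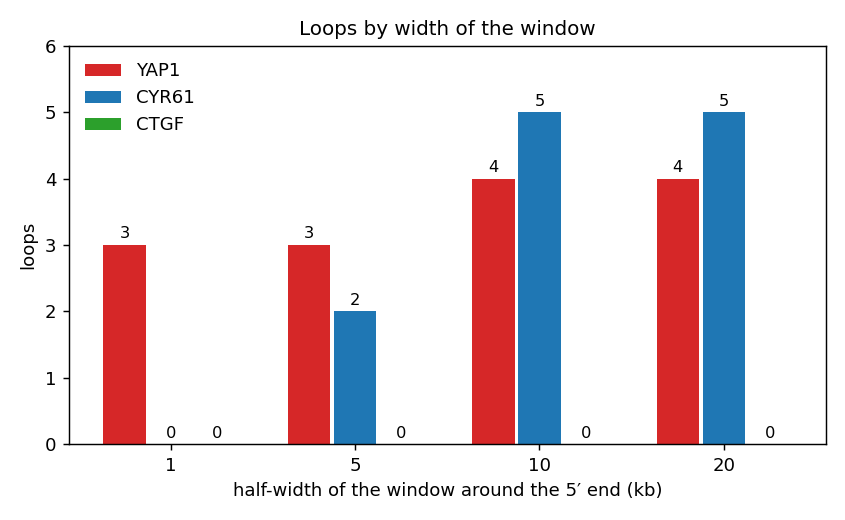
Number of loops (vertical axis) with an anchor within 1, 5, 10 or 20 kb of the 5′ end (horizontal axis) of YAP1, CYR61 and CTGF, with the number above each bar. YAP1 went from 3 to 4 loops, CYR61 from 0 to 5, and CTGF stayed at 0.

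Of the 5 CYR61 loops, 4 went upstream and 20% downstream (Wilson interval 3.62 to 62.4%). The difference in direction between YAP1 and CYR61 was not tested, since loops of 1 list are not replicates. Within 500 kb there were 21 anchors upstream of the window and 7 downstream, of which CYR61 was joined to 3 and 1. The partner at 529.4 kb lay outside this range and was the farthest of all 9, with 22 anchors passed over. A span at least as long as that of its loop was found in 20.4% of the loops of the list.

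The partner 301.4 kb upstream was the busiest partner of CYR61. With the bin that touches it on the far side, it formed a run of 4 kb, from 85742001 to 85746000, with 6 loops. Of these, 4 were local, to anchors 283.4 to 291.4 kb upstream of CYR61. One of the local loops had 2 contacts, while the loop to CYR61 had 1. Another passed over CYR61 to 86172001 to 86174000, 126.6 kb downstream. In gene order, the gene beyond DDAH1 is BCL10, which encodes an adaptor of NF-κB signalling, and ZNHIT6, a gene for the assembly of small nucleolar ribonucleoproteins, comes next downstream of CYR61. No partner was assigned to them.

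More loops passed over CYR61 than ended at it. There were 9 loops that spanned the whole 20 kb window, with 1 contact each, and 3 of them ended in the bin 126.6 kb downstream. Another ended at 130.6 kb. The partner 75.4 kb upstream of CYR61 also had 1 such loop, to a bin 26.6 kb downstream. At YAP1, 1 loop passed over the window, and at CTGF 1. Loops passing over other windows of the list were not counted, so whether 9 is unusual is unknown.

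**Figure D2:**
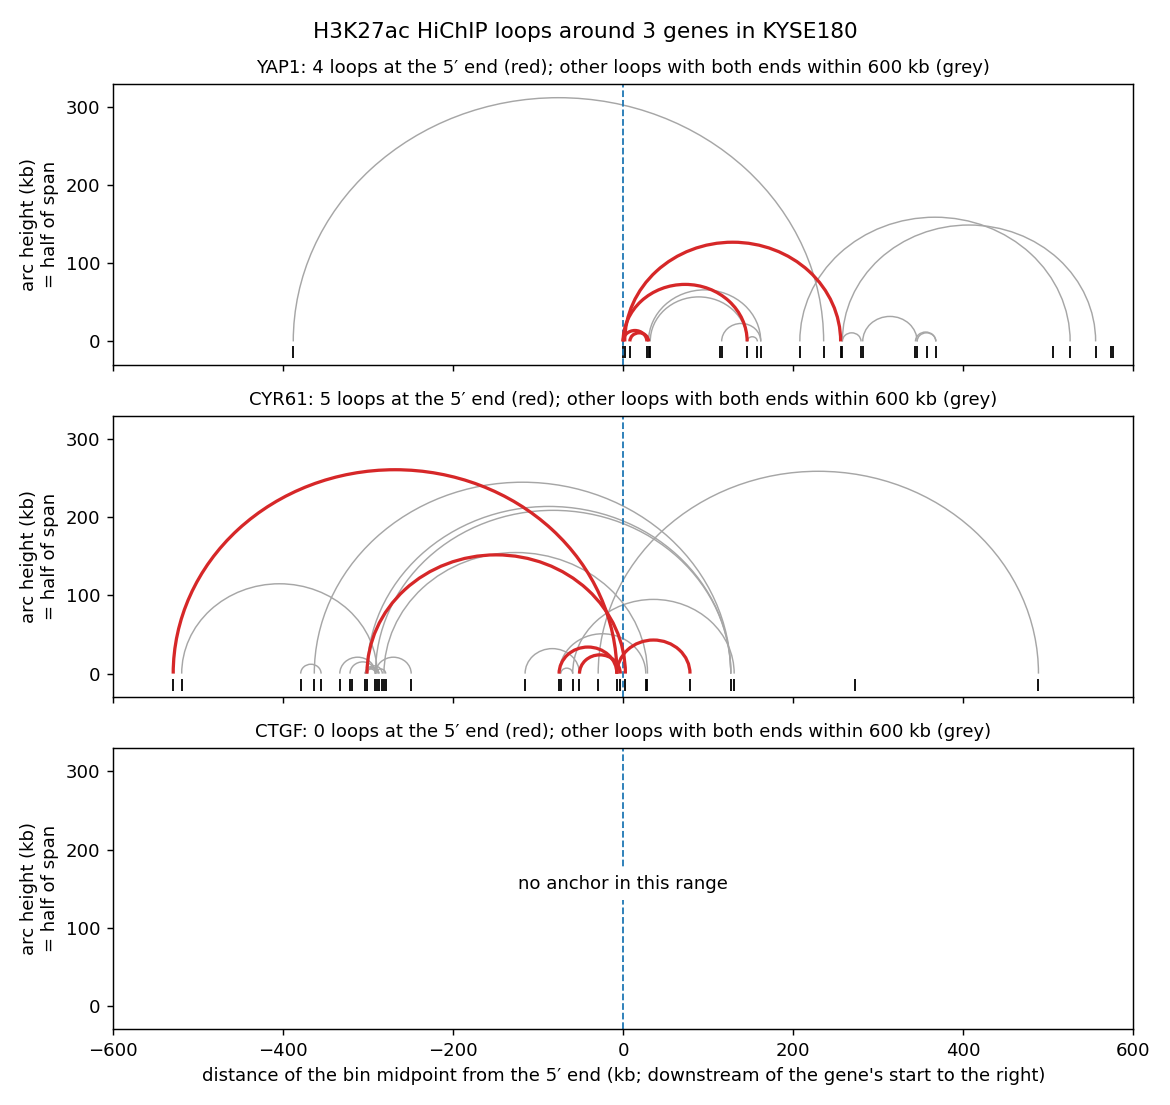
Loops around YAP1, CYR61 and CTGF, with the distance of each bin from the 5′ end in kb (horizontal axis, downstream to the right) and an arc height equal to the span divided by 2 (vertical axis). Red arcs are the loops of the gene, grey arcs other loops with both ends within 600 kb, and black ticks anchors. The 4 YAP1 arcs point downstream, 4 of the 5 CYR61 arcs point upstream, and the CTGF panel holds no anchor.

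CTGF had 0 loops and lay in a long stretch without any anchor. Its 5′ end is base 132272513 of chromosome 6, on the minus strand, so downstream runs towards lower positions. As a count of listed loops, 0 has a one-sided limit of 3, and its exact two-sided Poisson interval runs from 0 to 3.69. Contacts that were not called as loops, or that lacked H3K27ac at an end, are not in the list and are not limited by these values. The exact intervals were 1.09 to 10.2 for the 4 loops of YAP1 and 1.62 to 11.7 for the 5 loops of CYR61, and the differences between the genes were not tested. No anchor was listed from 130036001 to 133120000, a length of 3.08 Mb. The nearest anchors lay 848.5 kb upstream and 2238 kb downstream, each with 1 loop.

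Long stretches of this kind were few but took up much of the genome. Of the 22603 gaps between successive anchors of the list, 146 (0.646%) were as long or longer, 11 of them on chromosome 6, and the median gap was 22 kb. By length, these 146 gaps made up 26.8% of the sequence between the outermost anchors of the chromosomes. Gaps over centromeres and other sequence to which reads cannot be assigned were not set apart in this count. In gene order CTGF lies between ENPP1, a gene for a membrane phosphodiesterase, on its downstream side and MOXD1 on its upstream side, and whether the stretch reaches beyond these genes was not determined. The loop that passed over CTGF spanned 3154 kb with 1 contact, from 2289.5 kb downstream to 864.5 kb upstream. A bin without a loop is not necessarily a bin without H3K27ac or without contacts, since the list holds only bins that were part of a called loop. The paper's methods call the loops active p63-associated, so the list need not hold every H3K27ac loop of these cells. The absence of CTGF loops was not tested further.

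Read against windows centred on the anchors of the list, the numbers of loops at YAP1 and CYR61 lay near the middle. Among the 34902 windows of the same width centred on each anchor, the median was 4 loops (interquartile range 2 to 7). As many loops as YAP1 or more were found in 51.4% of them, and as many as CYR61 or more in 41.4%. These windows overlap each other, hold at least 1 loop by construction and need not be promoters. Over all 132301 adjoining windows of 11 bins along the chromosomes, the shares were 3.97% for YAP1 and 2.89% for CYR61, and 86.2% held 0 loops, as CTGF did.

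**Figure D3:**
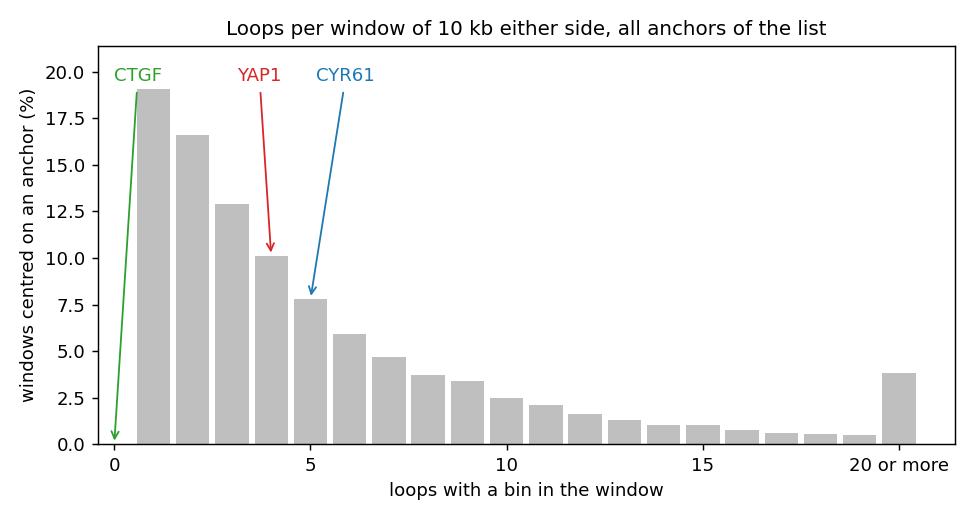
Share of the 34902 windows centred on an anchor (vertical axis, %) by the number of loops with a bin in the window (horizontal axis, 20 or more pooled). Arrows mark YAP1 at 4 loops, CYR61 at 5 and CTGF at 0, where no window of this kind can lie.

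The second number listed for each loop was read as the coverage of its first bin, the one at the lower position, by read pairs. The YAP1 anchors had coverages of 31 at the 5′ end, 25 in the adjoining bin and 18 in the bin 7.8 kb downstream. The median over the first bins of the list was 12, and 11.5% of them reached 31. Within 1 Mb of YAP1, 22 other first bins had a median of 10, and 1 of them, with 47, reached the lowest of the YAP1 anchors. Partners of YAP1 for which coverage was listed had 11 at 145.8 kb and 7 at 29.8 kb downstream, both below the median of the list. Bins that are not the first bin of a listed loop have no coverage in the list and could not be compared.

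At CYR61, coverage was listed for 1 of its 3 anchors, the one 7.4 kb upstream, with 29. A value this high was found in 13.2% of first bins. The 21 other first bins within 1 Mb had a median of 18, and 2 of them were as high or higher. Partners of CYR61 for which coverage was listed had 11 at 529.4 kb, 24 at 301.4 kb, 18 at 75.4 kb and 28 at 51.4 kb upstream. Near CTGF, 2 first bins lay within 1 Mb, the higher with 14. Coverage can also follow copy number, mappability and the strength of H3K27ac, and their part in these values was not tested.

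**Figure D4:**
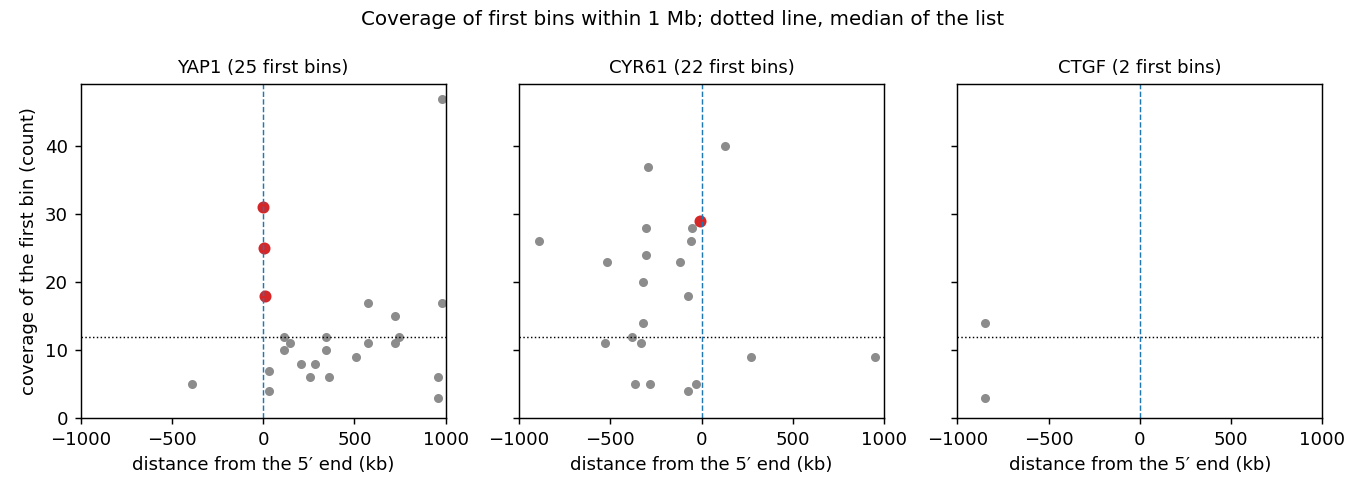
Coverage of the first bins of loops (vertical axis, count) by distance from the 5′ end (horizontal axis, kb) within 1 Mb of each gene, with the bins of the gene's own window in red and the list's median of 12 as a dotted line. The 3 YAP1 bins, at 18 to 31, stand above all but 1 of the 22 others.

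The loops of YAP1 and CYR61 had nearly equal median lengths, from few loops. Their spans had medians of 87 and 86 kb, and ran from 22 to 254 kb at YAP1 and from 48 to 522 kb at CYR61. The median of the list was 120 kb, and it ran from 10 to 5000 kb. With 4 and 5 loops, no difference in span could be resolved. Of the 9 partner bins, 5 had other loops of their own and 4 had none, and 67.7% of all loop ends in the list lay on anchors with 2 or more loops. The list holds 0 loops between chromosomes, so contacts among YAP1, CYR61 and CTGF, which lie on different chromosomes, were not measured.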

How the data were processed

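H3K27ac HiChIP of siRNA control KYSE180 cells gave 2 libraries. The authors processed the reads with HiC-Pro (hg19, per the processing notes of the submitters). Loops came from FitHiChIP (Peak-To-All), and only those with H3K27ac at each end were kept. The methods call them active p63-associated loops. Versions and thresholds are not given in the sources used here. The deposited list, 1 for both libraries, holds 2 columns of unnormalised counts without names. These were read as contacts and as coverage of the first bin. Loops that shared a first bin all listed the same coverage. Contacts exceeded coverage in 0 of 21636 first bins, a weak check, since 96.6% of loops had 1 contact. The summed coverage of first bins, 368661, is no measure of library depth. A single list hides differences between the libraries.

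Bins on 13 of the 25 chromosomes lay beyond the hg38 ends, so gene order, strand and length (RefSeq GRCh38.p14, GENCODE) were used without converting positions. The 5′ ends of the 3 genes were given in hg19. Distances run from bin midpoints. Of the members, 2 matched the promoter table. Other Hippo pathway genes were not placed.

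Members, lists and tests were chosen with earlier results of these data known. For each gene the text names every partner bin, which includes the nearest, the farthest and those of shared runs. Windows, contacts and spans were varied. Counting was checked on 20 simulated lists, and the planted loops were recovered in 20. Scripts ran in Python 3.11.15 with pandas 2.3.3, numpy 2.4.6, scipy 1.17.1 and matplotlib 3.10.9.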

Additional observations from a re-analysis of the deposited data

How the results depend on the processing

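The 11 results were recomputed in 54 ways in all, and 17 values moved by more than 1.5 times (counts) or out of the 95% Wilson interval (shares), while 37 did not. Requiring at least 2 contacts left YAP1 and CYR61 with 0 loops and 0 partner bins, since each of their loops rested on 1 contact. Within 1 kb, CYR61 had 0 loops and 0 partner bins, and within 5 kb it had 2 loops to 2 partner bins, with 0% downstream. These follow from the narrower window. The share of windows with as many loops or more was 55.6% for YAP1 and 76% for CYR61 within 5 kb (with 5 bins in each window of the background), 62.4% and 53.6% within 20 kb, and 52.3% and 42.4% with contacts in place of loops. Over adjoining windows, an alternative chosen after seeing the data, it was 3.97% and 2.89%. A minimum span of 20 kb, the midpoint of the bin and restriction to autosomes and X moved none of the values they were applied to. The span minimum could not act, since the shortest loop of the members spanned 22 kb. No alternative gave CTGF a loop, and none could, with the nearest anchor 848.5 kb away. Its share of windows with as many loops or more is 100% by definition. The CTGF values among the 37 were therefore fixed in advance and say nothing about stability. The share of CTGF loops downstream could not be computed from 0 loops. No paired analysis was possible because the 2 libraries are of 1 condition and were deposited as 1 list, which also means that neither could be left out.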
